A study of Mus musculus with 2 samples.

Results

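The 45 genes described here make up the machinery that builds autophagosomes and the lysosome that empties them, out of 17874 genes that had a probe set of their own on the arrays. They were chosen by function: 29 symbols fixed by name, of which 27 were found, and 18 genes whose symbol begins with Atg and a digit. The choice was made with earlier results of these data known. Optn and Bnip3l, the other two named genes, were not analysed here. By role, 31 of the 45 belong to autophagy, 13 to the lysosome and 1, Bnip3, to mitophagy, the removal of mitochondria.

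The sample titles name the cells as CFU-E (colony-forming unit erythroid), progenitors of red cells that depend on erythropoietin. Their RNA, which also held hepatocyte and granulocyte marker transcripts (described below), was hybridised to 2 Affymetrix mouse arrays. The protocol describes them as cells of EpoR-/- BALB/c embryos at gestational day 13.5, that is, bred to lack the erythropoietin receptor, while the genotype label of both samples reads Epo KO. Epor, the targeted gene per the protocol, had values of 7.08 at 0 h and 6.89 at 3 h. Whether its probe set lies in the deleted stretch is not known, so these values do not check the genotype. They were left after red cell lysis and antibody depletion of cells with myeloid, lymphoid, megakaryocytic and late erythroid surface markers, and 40 to 50 livers were pooled for a sort. After 1 h without growth factors the cells were lysed at once (0 h, 1 array) or after 3 h in Panserin medium (3 h, 1 array). The treatment protocol says that no growth factor was added for these 3 h, whereas the treatment label of the 3 h sample reads supplemental growth factors, so the groups are named by time. Wild-type cells were not analysed here. With 1 array per time no difference below has an error, a replicate check or a test.

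Autophagy encloses part of the cytoplasm in a growing membrane sac, the autophagosome, which then fuses with the lysosome, where acid hydrolases digest the contents. The ULK kinase complex starts the sac, a phosphoinositide kinase complex marks it, and ubiquitin-like proteins of the ATG8 family are coupled to its lipid, where receptors such as p62 hand over cargo. Red cell precursors use the same machinery late in their maturation to clear mitochondria and other organelles, with Bnip3l (Nix) as the best known mitochondrial receptor.

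Values are log2 expression values, and a difference is the value at 3 h minus that at 0 h. A gene was counted when the higher of its 2 values reached 5.70, the median of all gene values, here called the floor. Of the 45 members, 41 reached it, 40 of them on both arrays. Each of the 45 was measured by 1 probe set, and levels of single members are not compared with each other, since probe sets differ in brightness. The values describe all RNA of each sample, so fewer cells of a type and less RNA per cell cannot be told apart.

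No member differed by 2-fold between the arrays. Of the 41 members at or above the floor, 8 differed by at least 1.5-fold, which is 0.58 on the log2 scale: Atg2a, Sqstm1, Atg4a, Map1lc3a and Map1lc3b were higher at 3 h, and Atg16l2, Ulk1 and Bnip3 were lower. All 8 belong to autophagy or mitophagy, and none of the 13 lysosome genes was among them. Over all 9284 genes that reached the floor, 6.94% passed 1.5-fold upward and 4.8% downward, or 11.7% in either direction. At that share, 0 of 13 lysosome genes does not set the class apart by this count. The 8 of 41 members come to 19.5%, and the 7 of 27 autophagy members to 25.9%. Since the members were chosen with earlier results of these data known, these are not shares of a list picked blind. At 2-fold, the shares over all genes were 2.0% higher and 0.872% lower, beside 0 of 41 members. In the same 3 h sample the summed signal (the sum of unlogged values) of 17 granulocyte and mast cell markers was 12733, against 6712 at 0 h, and that of 14 erythroid markers 25658, against 20819. Their part in these differences was not tested.

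**Figure D1:**
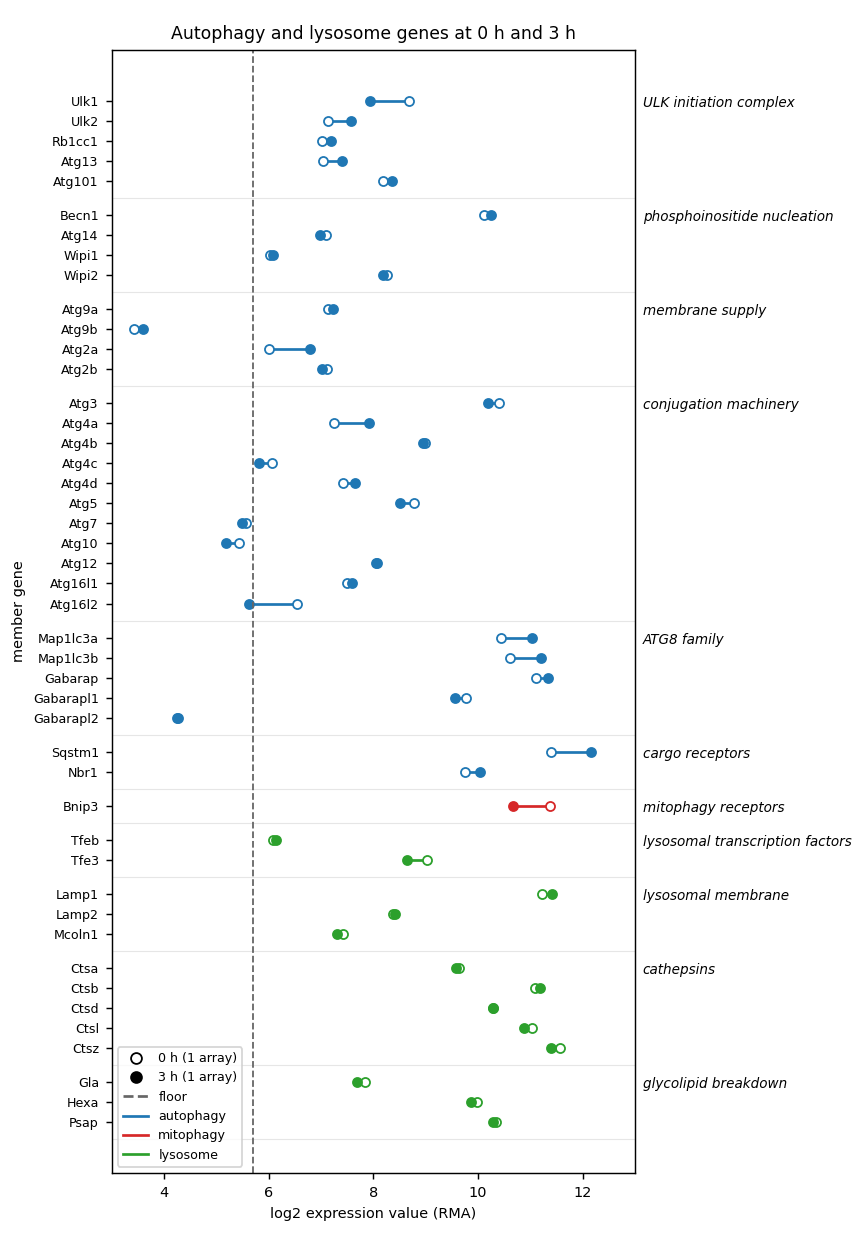
The log2 expression value of each of the 45 measured members at 0 h (open points, 1 array) and 3 h (filled points, 1 array), grouped by role and coloured by class, with the floor of 5.70 as a dashed line. The longest bars are those of Ulk1, Atg2a, Atg4a, Atg16l2, both LC3 genes, Sqstm1 and Bnip3. Open and filled points of the lysosome genes lie close together, those of Tfe3 (-0.38) the farthest apart.

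The ULK complex, which receives the starvation signal, was split. Ulk1, the kinase that starts autophagosome formation, had a value of 8.69 at 0 h and 7.93 at 3 h, a difference of -0.76 (1.69-fold lower). Its paralog Ulk2, which can take over much of its role, went the other way, from 7.13 to 7.57, a difference of 0.45. The distance between the 2 kinases' differences was 1.20, the widest among the paralog families of the list. The scaffold gene Rb1cc1 (7.03 and 7.20), the regulatory subunit gene Atg13 (7.04 and 7.40) and its partner Atg101 (8.18 and 8.36) were all slightly higher at 3 h. Ulk1 was thus the 1 member of this complex that was lower, and the median difference of the 5 was 0.18.

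The genes that act next, on phosphoinositides, hardly differed. Becn1 and Atg14 encode subunits of the lipid kinase complex that labels the growing membrane. Becn1 had values of 10.11 and 10.25, and Atg14 of 7.10 and 6.99. Wipi1 (6.02 and 6.09) and Wipi2 (8.26 and 8.19), which encode the proteins that read this lipid label, differed by 0.07 and -0.07. Within these 4 genes the differences ran from -0.11 to 0.14.

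Membrane supply held the member that was higher by the most. Atg2a, which encodes a lipid transfer protein that feeds the growing sac, went from 6.00 at 0 h to 6.79 at 3 h, a difference of 0.80 (1.74-fold). Its 0 h value lay close to the floor, where folds are less certain. The other two genes of this step above the floor stayed near their starting value. Its paralog Atg2b had values of 7.11 and 7.03, and Atg9a, which encodes the transmembrane protein that brings lipid vesicles, of 7.14 and 7.24. Atg9b did not reach the floor (3.43 and 3.61).

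In the conjugation machinery, which couples ATG8 proteins to lipid, 9 of 11 genes reached the floor and their median difference was -0.03. Atg16l2 was lower by the most of all members: its value was 6.54 at 0 h and 5.63 at 3 h, a difference of -0.92 (1.89-fold lower), with the 3 h value below the floor. Its paralog Atg16l1, which carries the conjugation complex to the membrane, had values of 7.49 and 7.59. So the more studied paralog differed by 0.11, and the next lowest genes of this group after Atg16l2 lay at -0.26 and -0.25.

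The 4 ATG4 protease genes, whose products trim new ATG8 proteins and later cut them off the lipid, did not move together. Atg4a went from 7.25 to 7.92, a difference of 0.67 (1.59-fold higher). Atg4b was 8.99 and 8.96, Atg4c 6.07 and 5.81, and Atg4d 7.43 and 7.65. Only Atg4a among these 4 passed 1.5-fold, and Atg4c, at -0.26, lay on the opposite side. Of the enzymes and carriers, the E2-like gene Atg3 (10.41 and 10.19) and the conjugate gene Atg5 (8.77 and 8.52) were slightly lower, and Atg12 (8.05 and 8.07), whose product is joined to ATG5, differed by 0.02. The E1-like gene Atg7 (5.57 and 5.50) and the E2-like gene Atg10 (5.44 and 5.18) were below the floor, which from 1 probe set does not show that they were off.

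Both LC3 genes and the receptor p62 were higher at 3 h. Map1lc3a had values of 10.44 and 11.04, a difference of 0.60 (1.51-fold). Map1lc3b, the LC3 gene whose product is the usual marker of autophagosomes, had values of 10.61 and 11.20, a difference of 0.59 (1.50-fold). The 2 differences lie 0.01 apart and just past the 1.5-fold mark, and the next member below them, Ulk2, was at 0.45. The Map1lc3a probe set is of the kind (_x_at) whose probes can match other transcripts, so its signal may not be independent of a paralog.

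The GABARAP branch of the ATG8 family, needed for late steps of autophagosome closure and fusion, differed less. Gabarap was 11.11 at 0 h and 11.33 at 3 h, and Gabarapl1 9.77 and 9.57, with differences of 0.21 and -0.20 in opposite directions. Gabarapl2 did not reach the floor (4.27 and 4.25). Sqstm1, which encodes p62, a receptor that binds ubiquitinated cargo and is itself degraded by autophagy, went from 11.40 to 12.16, a difference of 0.76 (1.69-fold). Among the 9284 genes its difference lay at the 96.1st percentile. Nbr1, a receptor of related build, was 9.76 and 10.04, a difference of 0.28 in the same direction.

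Mitophagy rests on Bnip3 alone. Bnip3, an outer mitochondrial membrane receptor that binds ATG8 proteins and is known as a hypoxia-induced gene, had values of 11.38 at 0 h and 10.67 at 3 h, a difference of -0.71 (1.63-fold lower, percentile 2.73). The direction is the opposite of that of Sqstm1 and the LC3 genes. From the list of other receptors, the outer membrane mitophagy receptor Bcl2l13 was also lower, from 9.47 to 8.84 (-0.63). Fundc1 (8.43 and 8.32) and Fkbp8 (9.90 and 9.68), chosen for mention after their values were seen, differed by less than 1.5-fold.

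**Figure D2:**
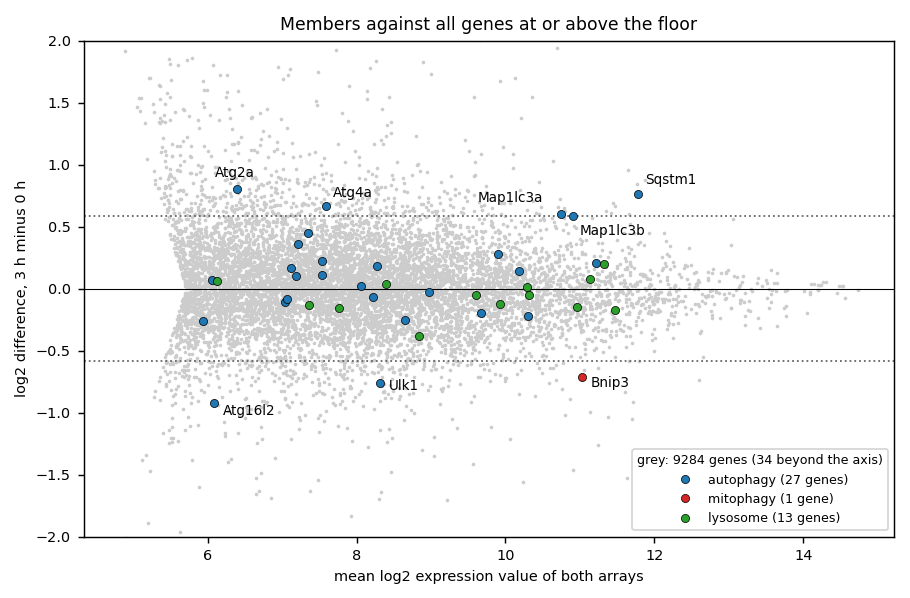
The log2 difference, 3 h minus 0 h, of each gene against its mean log2 value over both arrays, for all 9284 genes at or above the floor (grey; 34 lie beyond the axis) and the 41 members among them (coloured by class), with dotted lines at 1.5-fold. The 8 named points lie outside the dotted lines, and the 13 lysosome genes (green) lie between -0.38 and 0.20 over a wide range of levels.

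The lysosome genes stood close to their starting values. Their differences ran from -0.38 to 0.20 with a median of -0.05, 5 above and 8 below 0, beside a median of 0.01 over all genes. The SD of the 13 differences was 0.15, against 0.41 for the 27 autophagy members and 0.42 for all genes. The lysosome genes also had higher signal, with a median of 9.99 at 0 h against 7.43 for all 31 autophagy members. Of those 31, 4 did not reach the floor and are not in the SD, and signal also reflects the brightness of probe sets. The part of signal level in the spread was not tested. The share of all genes past 1.5-fold was 11.0% with the floor set 1 log2 unit higher, at 6.70, where 12 of the 13 lysosome genes were still counted and 0 passed. The median of the autophagy members was 0.11, with 17 above and 10 below 0, so the class medians lay 0.16 apart, a distance that has no test here. It was 0.10 when probe sets with the suffixes _a_at, _s_at and _x_at were left out, which kept 20 autophagy and 4 lysosome genes.

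Among the lysosomal transcription factor genes, Tfeb, the main activator of lysosomal and autophagy genes, had values of 6.09 and 6.15. Tfe3, its relative with overlapping targets, was 9.03 at 0 h and 8.65 at 3 h, and its difference of -0.38 was the lowest of the class. Both proteins are controlled mainly through their place in the cell, which RNA does not show. Lamp1 and Lamp2, the main glycoproteins of the lysosomal membrane, were 11.22 and 11.42, and 8.37 and 8.41. The calcium channel gene Mcoln1 was 7.43 and 7.30. Lamp1, at 0.20, was the highest of the class and far from 1.5-fold.

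The cathepsins, the proteases of the lysosome, differed by -0.17 to 0.08. Ctsd, the aspartic protease, was 10.29 on both arrays, and the cysteine protease Ctsb was 11.10 and 11.18. Ctsl was 11.03 and 10.88, Ctsz 11.56 and 11.39, and the carboxypeptidase gene Ctsa, which also protects other hydrolases, 9.64 and 9.58. The 3 genes of glycolipid breakdown were all slightly lower at 3 h. Gla, the alpha-galactosidase, was 7.85 and 7.69, the hexosaminidase gene Hexa 9.99 and 9.86, and Psap, precursor of the saposin cofactors, 10.34 and 10.29. None of these 8 genes differed by more than 0.17 in either direction.

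The lysosome genes are known to share a promoter element, the CLEAR element, to which TFEB and TFE3 bind. Its core, TCACGTGA, was searched for in the 300 bases around the annotated starts (250 before and 50 after; RefSeq, GRCm38.p6), together with CACGTG, the E-box contained in it, and TGACNNNGC, the core to which NRF2 binds, on both strands. Of the 45 measured members, whether at the floor or not, 39 had a promoter in the table, 26 of autophagy, 12 of the lysosome and that of Bnip3; Rb1cc1, Becn1, Atg12, Atg16l1, Map1lc3a and Ctsb did not. TCACGTGA was present in 4 of 12 lysosome genes (33.3%), in 1 of 26 autophagy genes (3.85%), and in 1.12% of all 27025 genes of the table. CACGTG was present in 6 of 12 lysosome genes (50.0%; Lamp1, Mcoln1, Ctsa, Ctsd, Ctsl and Gla), 4 of 26 autophagy genes (15.4%; Atg14, Atg3, Atg5 and Atg7), Bnip3 and 8.09% of all. The 27025 genes include ones not measured or below the floor, whereas 41 of the 45 members reached it. These shares thus do not compare matched sets. A match describes these letters and does not show that a factor was bound.

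The windows below carry part of these matches, each read 5′ to 3′ toward the gene, with TCACGTGA or CACGTG in capitals. Those of Mcoln1, Ctsd, Ctsa, Gla and Atg3 hold the full core, Lamp1 holds the E-box 4 times, and that of Bnip3 is the 1 E-box among the members past 1.5-fold. They run from 120 bases before the start up to the base before it, and for Gla from 240 to 181 bases before it; that of Ctsa belongs to the second of its annotated starts. Matches of Atg14, Atg5, Atg7 and Ctsl, and further matches of Ctsd and Ctsa outside these stretches, are not shown.
Mcoln1 (chr8:3500399-3500518, plus strand): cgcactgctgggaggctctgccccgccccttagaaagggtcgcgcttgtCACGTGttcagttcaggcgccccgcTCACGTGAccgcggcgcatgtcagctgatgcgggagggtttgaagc
Ctsd (chr7:142387828-142387947, minus strand): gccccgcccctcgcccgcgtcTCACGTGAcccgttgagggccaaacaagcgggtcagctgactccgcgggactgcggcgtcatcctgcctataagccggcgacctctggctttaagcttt
Ctsa (chr2:164833653-164833772, plus strand): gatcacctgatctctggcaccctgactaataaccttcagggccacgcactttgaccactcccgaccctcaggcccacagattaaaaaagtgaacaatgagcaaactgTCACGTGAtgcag
Gla (chrX:134601186-134601245, minus strand): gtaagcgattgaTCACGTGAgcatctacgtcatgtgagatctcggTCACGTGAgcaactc
Lamp1 (chr8:13159041-13159160, plus strand): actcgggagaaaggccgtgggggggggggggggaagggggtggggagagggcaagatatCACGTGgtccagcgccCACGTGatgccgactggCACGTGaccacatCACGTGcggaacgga
Atg3 (chr16:45158709-45158828, plus strand): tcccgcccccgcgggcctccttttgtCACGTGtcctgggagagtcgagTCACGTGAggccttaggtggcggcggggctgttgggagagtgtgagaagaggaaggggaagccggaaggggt
Bnip3 (chr7:138909507-138909626, minus strand): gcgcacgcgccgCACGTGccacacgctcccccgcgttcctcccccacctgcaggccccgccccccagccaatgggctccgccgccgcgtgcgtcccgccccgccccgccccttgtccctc

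For comparison, the same stretch is shown for Sqstm1 and for the members with the highest and the lowest difference, which hold neither form in the 300 bases searched.
Sqstm1 (chr11:50210821-50210940, minus strand): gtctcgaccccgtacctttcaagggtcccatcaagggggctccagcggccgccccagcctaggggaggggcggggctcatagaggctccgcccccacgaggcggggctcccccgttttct
Atg2a (chr19:6241548-6241667, plus strand): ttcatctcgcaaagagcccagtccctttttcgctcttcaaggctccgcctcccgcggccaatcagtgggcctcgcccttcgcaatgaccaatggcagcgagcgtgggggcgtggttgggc
Atg16l2 (chr7:101302089-101302208, minus strand): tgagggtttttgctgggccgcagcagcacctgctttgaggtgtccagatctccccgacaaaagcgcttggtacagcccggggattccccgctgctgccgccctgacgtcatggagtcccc

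The 5 members with TCACGTGA differed by -0.22 to 0.01 (Atg3 the lowest, Ctsd the highest), and 0 of the 5 passed 1.5-fold. Across the table, 186 genes with this core reached the floor; their median difference was 0.05, and 9 were at least 1.5-fold higher and 6 lower, 8.06% in all. Of the 8 members past 1.5-fold, 7 had a promoter in the table, 0 held TCACGTGA and 1, Bnip3, held CACGTG. TGACNNNGC was in 3 of the 26 autophagy promoters, those of Ulk2, Atg13 and Map1lc3b, whose differences were 0.45, 0.36 and 0.59. It was also in 4 lysosome promoters (Ctsd, Ctsz, Hexa and Psap), whose differences ran from -0.17 to 0.01, and in 14.0% of all genes, whose median difference was 0.01. The same letters thus stood in members on either side of 0.

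Other genes of the pathway, from 7 lists that hold none of the members, were described in the same way. The 20 other autophagy machinery genes that reached the floor had a median difference of 0.14. Of these, 2 passed 1.5-fold upward and 0 downward, a share of 10.0% beside 11.7% over all genes. Both encode proteins that bind the ATG8 family: Trp53inp1, a stress-induced p53 target, went from 9.09 to 10.77 (1.67, 3.19-fold), and Trp53inp2 from 7.91 to 8.67 (0.76). Wdr45, a relative of the WIPI genes, was next at 0.57 (7.76 and 8.33). Pik3c3 and Pik3r4, the catalytic and regulatory subunits of the lipid kinase complex that Becn1 belongs to, were 7.55 and 7.84, and 6.89 and 7.35; they were chosen for mention after their values were seen.

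Of 11 other autophagy and mitophagy receptors, 1 was at least 1.5-fold higher and 1 lower, with a median of 0.10. The higher gene was Retreg1, a receptor for autophagy of the endoplasmic reticulum, from 7.16 to 8.33 (1.17, 2.25-fold), and the lower one was Bcl2l13. Usp30, a mitochondrial deubiquitinase that opposes mitophagy, went from 5.54 to 6.00, across the floor. Over all genes the shares past 1.5-fold were 6.94% higher and 4.8% lower, so 1 of 11 each way does not set this list apart.

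In the wider lysosome, too, most differences were small. Of 29 other hydrolase genes, 1 was at least 1.5-fold higher and 0 lower, with a median of 0.01 and 18 above 0. It was the cysteine protease gene Ctso, which crossed the floor (5.53 and 6.33). Ctss, a cathepsin abundant in myeloid cells, was 6.98 and 7.53, and the sulfamidase gene Sgsh 5.61 and 6.04. Of 17 membrane and trafficking genes, Ostm1, partner of the lysosomal chloride transporter, was higher (7.87 and 8.65, 0.78), and Igf2r, which delivers hydrolases to the lysosome, lower (8.94 and 8.31, -0.63). The cholesterol exporter gene Npc1, at 0.58, was just short of 1.5-fold. Past 1.5-fold were 3.45% of the other hydrolases and 11.8% of the membrane and trafficking genes, beside 11.7% over all genes.

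The 14 genes of the V-ATPase, the pump that acidifies the lysosome, had a median difference of 0.19, with 10 above and 4 below 0 and 0 past 1.5-fold, whereas 51.5% of all genes lay above 0. Atp6v1b2 (9.47 and 9.93), Atp6v1d (9.15 and 9.57) and Atp6v0a2 (6.77 and 7.14) were highest. By the same count, 18 of the 29 other hydrolase genes lay above 0, and no difference between the pump and the hydrolases was tested.

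The kinase systems that switch autophagy on and off had a median of 0.00 over 23 genes, with 1 gene past 1.5-fold in each direction. That is 8.7% of the list, beside 11.7% over all genes. Deptor, an inhibitor of the mTOR kinase, was lower (6.64 and 5.94, -0.70), and Rragd, a GTPase that brings mTORC1 to the lysosome and is a TFEB target, higher (6.86 and 7.52, 0.67). Prkaa1, the catalytic subunit gene of the energy sensor AMPK, was 8.24 and 8.68. Of 10 transcription factor genes known to act on autophagy genes, 2 were at least 1.5-fold higher: Tfec, a relative of TFEB (4.71 and 6.11, 1.40), and the erythroid factor gene Gata1 (9.32 and 10.15, 0.83). Over all genes, 6.94% were this much higher, and a list of 10 is small. Tfec was below the floor at 0 h. Mitf, the remaining gene of the TFEB family and named after its values were seen, was below it each time (4.62 and 5.69). Hif1a, which encodes the hypoxia factor that induces Bnip3, was 10.22 and 10.79 (0.57), the opposite direction to Bnip3. Its RNA does not show the activity of the factor, and a link between the 2 differences was not tested.

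**Figure D3:**
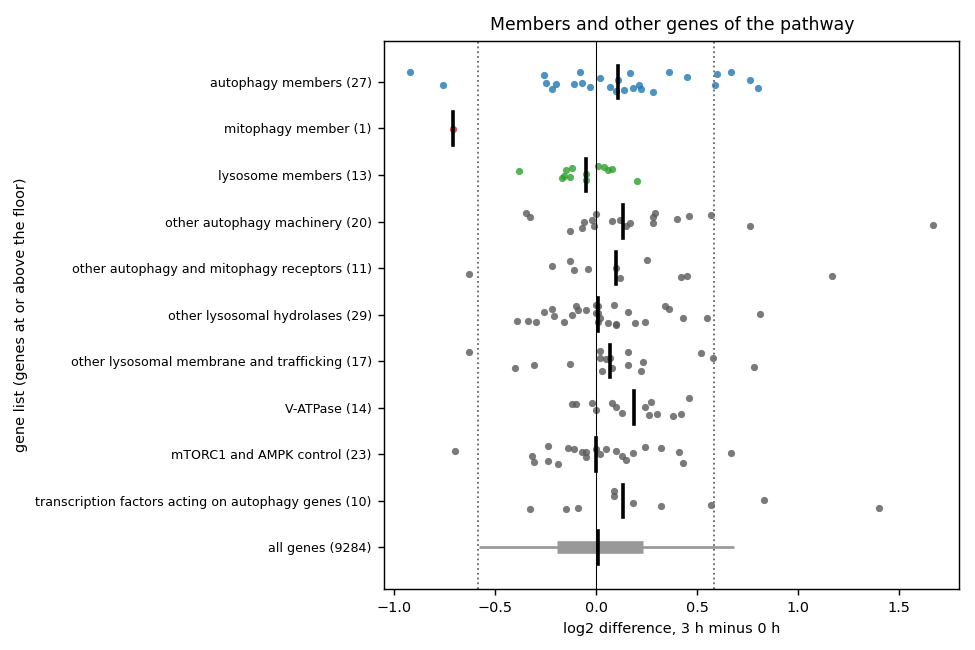
The log2 difference, 3 h minus 0 h, of every gene at or above the floor in the 3 classes of members and 7 lists of other pathway genes (points, with the number of genes in brackets; black bar, median), beside all 9284 genes (black bar, median 0.01; grey box, quartiles -0.20 and 0.23; line, percentiles 5 and 95, at -0.58 and 0.68). Dotted lines mark 1.5-fold. All lysosome members and V-ATPase genes lie between the dotted lines, and the points farthest to the right are Trp53inp1, Tfec and Retreg1.

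Markers were used to check which cells the RNA came from, and those named for their level have the highest signal of their list, an order that also reflects their probe sets. All 14 measured erythroid markers reached the floor, 13 of them on the 0 h array, with Cd24a (12.30 and 12.63) and Klf1 (12.03 and 12.31) at the top. At 3 h, 5 of the 14 were at least 1.5-fold higher and 0 lower. These were the band 3 gene Slc4a1 (5.47 and 8.30, from a probe set of the _x_at kind), Nfe2 (8.96 and 10.07), Gata1, Tal1 (9.35 and 10.13) and the transferrin receptor gene Tfrc (10.11 and 10.72). All of them but Gata1 were chosen for mention after their values were seen.

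All 17 hepatocyte markers reached the floor on both arrays, led by Afp (14.60 and 14.53) and Alb (14.15 and 13.96). Their median difference was -0.19, and their summed signal was 118099 at 0 h and 111097 at 3 h. At least 1.5-fold higher at 3 h were 2 of them, Krt8 (0.95) and Krt18 (0.88). At least 1.5-fold lower were 3, Apob (-0.79), Apoc1 (-0.75) and Hnf4a (-0.70). These 5 were chosen for mention after their values were seen. Of 17 granulocyte and mast cell markers, 8 reached the floor at 0 h and 11 at 3 h, and 7 of the 11 were at least 1.5-fold higher. Mpo (11.70 and 12.16), Prtn3 (10.24 and 10.79), S100a9 (9.72 and 11.67), S100a8 (9.28 and 10.98) and Camp (5.11 and 6.78) were all higher at 3 h. With hepatocyte and granulocyte transcripts beside the erythroid ones, the RNA cannot be read as that of CFU-E alone.

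Of 19 macrophage and monocyte markers, 6 reached the floor on each array, and the summed signal was 2710 at 0 h and 4072 at 3 h. Of these 6, 4 were at least 1.5-fold higher, namely Lyz2 (7.98 and 9.80), Csf1r (8.32 and 9.32), Fcgr3 (7.26 and 8.07) and Cd14 (7.88 and 8.51). Laptm5 (9.80 and 10.35) was higher by less, and Vcam1 (9.22 and 8.25) was lower by more than 1.5-fold. The other 13 did not reach the floor at either time, among them C1qa, C1qb, C1qc, Adgre1, Cd68, Mrc1 and Cd163. Differences of these 13 ran from -0.32 (Mertk, 4.66 and 4.34) to 1.24 (Fcgr1, 4.30 and 5.54). The 7 genes listed first, Mertk, Fcgr3 and Cd14 were chosen for mention after their values were seen.

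Of 7 megakaryocyte markers, 1 reached the floor at 0 h and 4 at 3 h. Itga2b (7.14 and 7.05) and Pf4 (5.67 and 5.74) had the highest signal at 0 h, and Gp1bb (4.49 and 6.68), named after its values were seen, differed by 2.19. Endothelial (2 of 7) and lymphoid markers (1 of 10) reached the floor less widely, with Kdr (6.97 and 6.93), Pecam1 (5.69 and 5.96), Ighm (5.70 and 6.44) and Cd3e (5.38 and 5.38) the highest at 0 h. Autophagy and lysosome genes are expressed in nearly all cell types, these included. The part of the marker differences, erythroid ones included, in the values of Sqstm1, the LC3 genes, Atg16l2, Ctss, Tfec and the other genes was not tested.

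**Figure D4:**
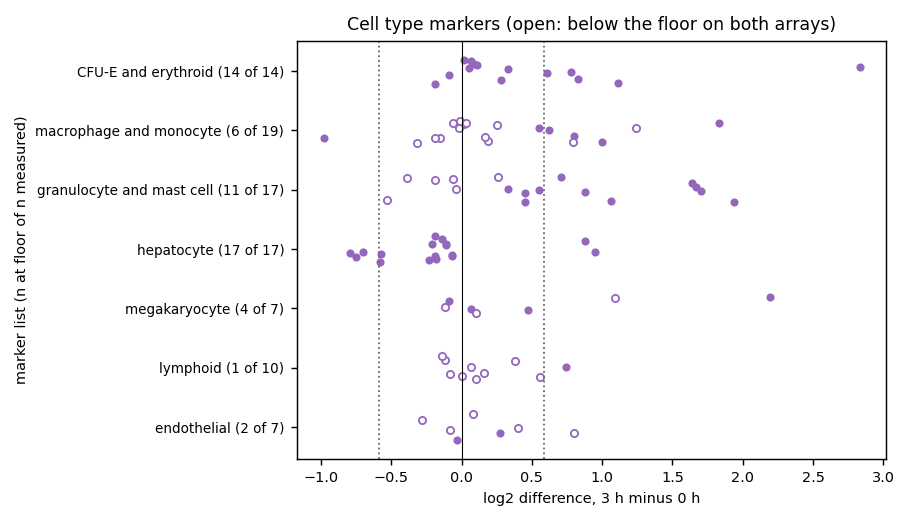
The log2 difference, 3 h minus 0 h, of each measured marker of 7 cell types (filled, at or above the floor on at least 1 array; open, below it on both), with the number at the floor of the number measured in brackets and dotted lines at 1.5-fold. All 11 granulocyte and mast cell markers at the floor lie right of 0, and 15 of the 17 hepatocyte markers left of it.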

How the data were processed

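The deposited log2 values of 20666 probe sets on 2 arrays were made by the authors with RMA in the affy package, per the submitters' processing notes; their versions, and the set of arrays that RMA was run on, are not stated there. RMA forces a common distribution on the arrays (medians 5.29 and 5.32), so a shift of all transcripts cannot be seen, and it shrinks differences near background. Arrays give no read depth; their number is what limits precision. Of the probe sets, 17918 had 1 gene in the platform's annotation, 79 several and 2669 none. Symbols were checked by Entrez ID against RefSeq genes (17767 matched, 0 changed). Probe sets of a gene were averaged.

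Genes whose higher value reached 5.70 were counted, and the value at 0 h was subtracted from that at 3 h. No test was made, since each time had 1 array. The members and lists were chosen with earlier results of these data known. Named were all members, from each pathway list up to 3 genes with the largest difference, from the macrophage and granulocyte markers the 3 brightest and the 3 that differed most, and from other markers the 2 brightest at 0 h. Genes named outside this rule are marked as such. Alternatives were quantile normalization, removal of an intensity trend (loess, span 0.3), the brightest probe set per gene, leaving out probe sets by suffix, no floor, a floor of 6.70 and means for medians. Python 3.11.15, numpy 2.4.6, pandas 2.3.3, statsmodels 0.14.6 and matplotlib 3.10.9 were used, and the steps were tested on simulated data.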

Additional observations from a re-analysis of the deposited data

How the results depend on the processing

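All 8 members past 1.5-fold stayed past it, in the same direction, under quantile normalization and removal of the intensity trend. The brightest probe set per gene and no floor could not change these 8. Each had 1 probe set and had already reached the floor. With the floor at 6.70, Atg16l2 was not counted (1 autophagy gene at least 1.5-fold lower). Without probe sets of suffix a, s or x, Sqstm1 and Map1lc3a were not measured, and 3 autophagy genes were at least 1.5-fold higher. The distance between the class medians ran from 0.10 (without those suffixes) to 0.24 (floor at 6.70) over all alternatives. No member's difference moved by 0.1 or more under quantile normalization or removal of the intensity trend. The other alternatives could not change a member's difference, only whether it was measured or counted. The floor of 5.70 was kept under every alternative that does not name another.

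Among the other lists, leaving out the suffixes a, s and x gave a median of -0.01 for the 13 other autophagy machinery genes left. Leaving out only s and x, chosen after seeing the data, moved no count by over 1.5 times and no median by 0.1 or more. With no floor, 1 other hydrolase was at least 1.5-fold lower and 2 transcription factor genes were at least 2-fold higher. With the floor at 6.70, 0 other hydrolases were at least 1.5-fold higher, 0 mTORC1 and AMPK genes were 1.5-fold lower, and 1 and 0 transcription factor genes were 1.5-fold and 2-fold higher. No paired analysis was possible because each time has 1 array and no test was made.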
